A study of Danio rerio with 6 samples.

Results

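Cytosolic ribosomal proteins are the protein subunits of the ribosomes that translate nuclear-encoded mRNAs. Their genes were taken from the count table by name, as symbols beginning rps or rpl followed by a digit or by p. S6 kinases (rps6k), rpl7l1, rpl22l1, rpl39l and rps19bp1 were left out. The rule gave 80 of 32059 rows with 79 names, since rpl37 is listed under 2 gene IDs. Of these rows, 46 encode large-subunit and 34 encode small-subunit proteins. RNA was measured in cells labelled as thyroid follicular cells, the hormone-producing epithelial cells of the thyroid, sorted from zebrafish at 5 months post-fertilization. All animals carried Tg(tg:nls-EGFP), in which the thyroglobulin promoter drives a nuclear green reporter, and a knock-in of the fluorescent protein mKO2 at pax2a, a transcription factor gene of thyroid development. The 3 pax2a-high libraries came from mKO2-High cells and the 3 pax2a-low libraries from mKO2-Low cells. Both groups were therefore defined by reporter fluorescence on 1 genetic background, and the study has no other group. Whether the libraries of a group derive from different animals is not stated in the labels, so p-values reflect only how far these libraries differ, which may be technical.

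A ribosome is built from a small subunit, which decodes the mRNA, and a large subunit, which joins amino acids. Most of its proteins are present in 1 copy each. In vertebrates the mRNAs of ribosomal proteins begin with a terminal oligopyrimidine (TOP) tract, which places their translation under control of the mTORC1 kinase. The proteins are assembled onto ribosomal RNA in the nucleolus by a large set of assembly factors.

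Total counts per library lay between 18014891 and 35403210 for pax2a-high cells, and between 6053741 and 10932845 for pax2a-low cells. The 37 rows of the mitochondrial genome took 1.04 ± 0.205% of counts in pax2a-high libraries, against 33 ± 13.9% in pax2a-low libraries (mean ± SD, n = 3 each). Thyroglobulin, tg, took 15.3 to 24.0% in pax2a-high libraries, against 0.398 to 3.80% in pax2a-low libraries. The gene pax2a itself had 303, 431 and 579 CPM (counts per 1000000 of scaled library size) in pax2a-high libraries, against 2.31, 1.24 and 157 CPM in pax2a-low libraries. The third pax2a-low library thus stands far above the other pax2a-low libraries for pax2a, which did not pass the test used here (edgeR adjusted p = 0.595). That library also had the highest tg share of the pax2a-low libraries, at 3.80% against 0.454 and 0.398%. EGFP, the other reporter, had 250, 262 and 411 CPM in pax2a-high libraries. In pax2a-low libraries EGFP had 26.6, 46.2 and 175 CPM (edgeR adjusted p = 0.182). The row of mKO2, the reporter whose fluorescence was sorted, had 4.52, 33.9 and 18.4 CPM in pax2a-high libraries, against 0, 0.744 and 0 CPM in pax2a-low libraries, without overlap (edgeR adjusted p = 0.344). The 8 thyroid follicular markers summed to 158281 to 240441 CPM in pax2a-high libraries and 3598 to 32750 CPM in pax2a-low libraries. Tg, given above, is 1 of these markers and made up most of the sum in every library. The groups were separate for 8 of 8, against 21.4% of all genes tested with pax2a-high above pax2a-low. Of the 7 tested, edgeR called 1 higher and 0 lower, against 1.12% and 1.46% of all genes. The 16 ionocyte markers, genes of ion-transporting epithelial cells, summed to 14.2 to 60.5 CPM in pax2a-high libraries, against 3423 to 7717 CPM in pax2a-low libraries. Of these, 8 were higher in every pax2a-low library. The share of all genes with every pax2a-low library above every pax2a-high library was not computed, so this count has no background beside it. For 1 of the 8, clcn2c, this rests on 2, 5667 and 2 counts in pax2a-low libraries, against 0, 0 and 2 in pax2a-high libraries. Of the 10 ionocyte markers tested, edgeR called 5 lower and 0 higher, against 1.46% and 1.12% of all genes. Rhcga, rhbg, ca15a, slc4a1b, foxi3a, gcm2 and rhcgb had no count in any pax2a-high library. The 15 macrophage and dendritic cell markers summed to 30.1 to 171 CPM in pax2a-high libraries, against 594 to 1530 CPM in pax2a-low libraries. Of the 6 tested, edgeR called 0 higher and 0 lower, against 1.12% and 1.46% of all genes. Cd74a, cd74b and mpeg1.2 were higher in every pax2a-low library, again without a background share. They did not pass (edgeR adjusted p of 0.127, 0.0597 and 0.0615). The other 12 overlapped: c1qb was at 0 in all 6 libraries, c1qa and c1qc had counts in the second pax2a-low library alone, and ptprc and coro1a had positive log2 fold changes of 1.93 and 0.72 (edgeR adjusted p of 0.885 and 0.978). Summed levels overlapped between the groups for the markers of lymphocytes (10 rows, 0.244 to 17.8 against 0 to 6.17 CPM), erythrocytes (8 rows, 14.4 to 32.8 against 0.386 to 47.7 CPM), endothelium (7 rows, 31.6 to 85.1 against 0.386 to 93.9 CPM), fibroblasts (7 rows, 48.3 to 138 against 3.86 to 141 CPM) and epidermis (9 rows, 342 to 1335 against 600 to 2513 CPM), with pax2a-high given before pax2a-low. Mitochondrial share, depth and markers of other cell types therefore move with the comparison of the groups. Their part in the results on ribosomal protein genes was not tested, and the level of pax2a cannot be told apart from the mix of cells in each sort gate.

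The ribosomal protein genes together held a larger part of the reads in every pax2a-high library than in any pax2a-low library. They took 2.94, 3.70 and 3.02% of all counts in the pax2a-high libraries, against 0.458, 1.45 and 1.12% in the pax2a-low libraries. The means were 3.22 ± 0.417% in pax2a-high libraries, against 1.01 ± 0.506% in pax2a-low libraries (mean ± SD, n = 3 each), a ratio of 3.19. The groups did not overlap, and the exact two-sided permutation test gave p = 0.1, the smallest value that 3 libraries against 3 allow. The 80 rows held 529895, 754343 and 1068532 counts in pax2a-high cells, against 27748, 104380 and 122430 in pax2a-low cells. Since the samples are bulk RNA, fewer cells of a type and less RNA per cell cannot be told apart.

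The mitochondrial rows and tg fill the libraries unevenly, so the share was also taken without them. Among counts outside the mitochondrial rows the ribosomal protein genes made up 2.97, 3.74 and 3.05% in pax2a-high libraries, against 0.898, 1.91 and 1.51% in pax2a-low libraries. With tg removed as well, the values were 3.63, 4.43 and 4.03% in pax2a-high libraries and 0.907, 1.92 and 1.59% in pax2a-low libraries. The groups stayed apart under both bases, with ratios of 2.26 and 2.73 and an exact permutation p of 0.1 each. The first pax2a-low library was the lowest under all 3 bases.

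**Figure D1:**
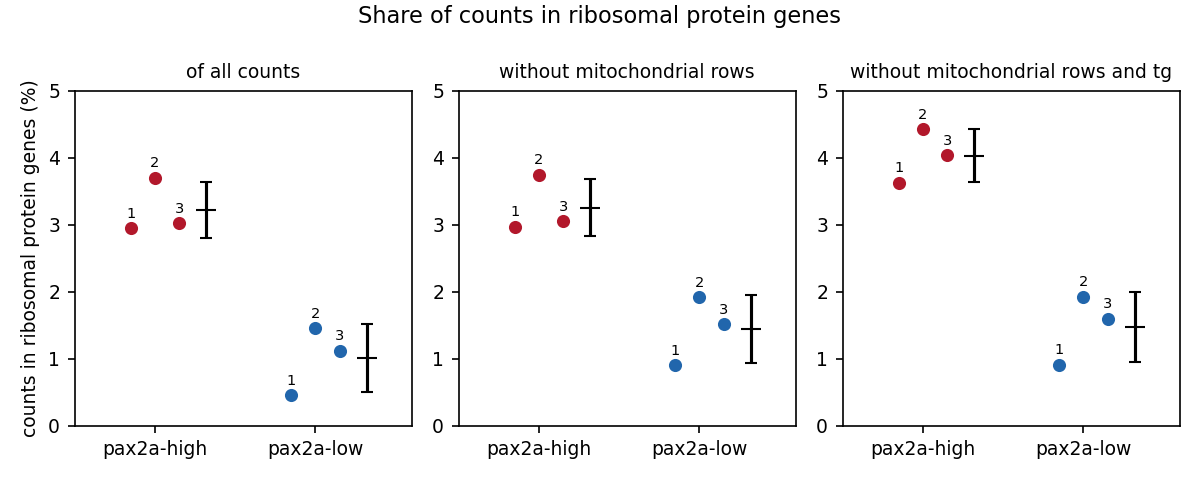
Share of counts in the 80 cytosolic ribosomal protein rows for each library, in percent of all counts, of counts outside the mitochondrial rows, and of counts outside the mitochondrial rows and tg; points are libraries labelled by replicate number and black bars are group means with SD (n = 3). Every pax2a-high point lies above every pax2a-low point on each base, and the ratio of means runs between 2.26 and 3.19.

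Gene by gene, the same direction was seen across the family. Of the 80 rows, 77 passed the count filter. For these 77, the median level in the pax2a-high libraries was 354, 456 and 378 CPM, against 56.3, 153 and 107 CPM in the pax2a-low libraries. Of the 77, 75 were higher in every pax2a-high library than in any pax2a-low library, against 21.4% of all genes tested. The fitted log2 fold change of pax2a-high over pax2a-low was positive for 77 of 77, against 57.1% of all genes tested. Its median was 1.90 with quartiles of 1.62 and 2.20, beside a median of 0.35 over all genes tested. The gap depended on the fit: limma voom with quality weights gave 1.96 for the family beside 1.52 for all genes, and without the second pax2a-low library edgeR gave 2.23 beside 1.33. Rps27l had the lowest value at 0.55 and rpl9 the highest at 3.37.

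**Figure D2:**
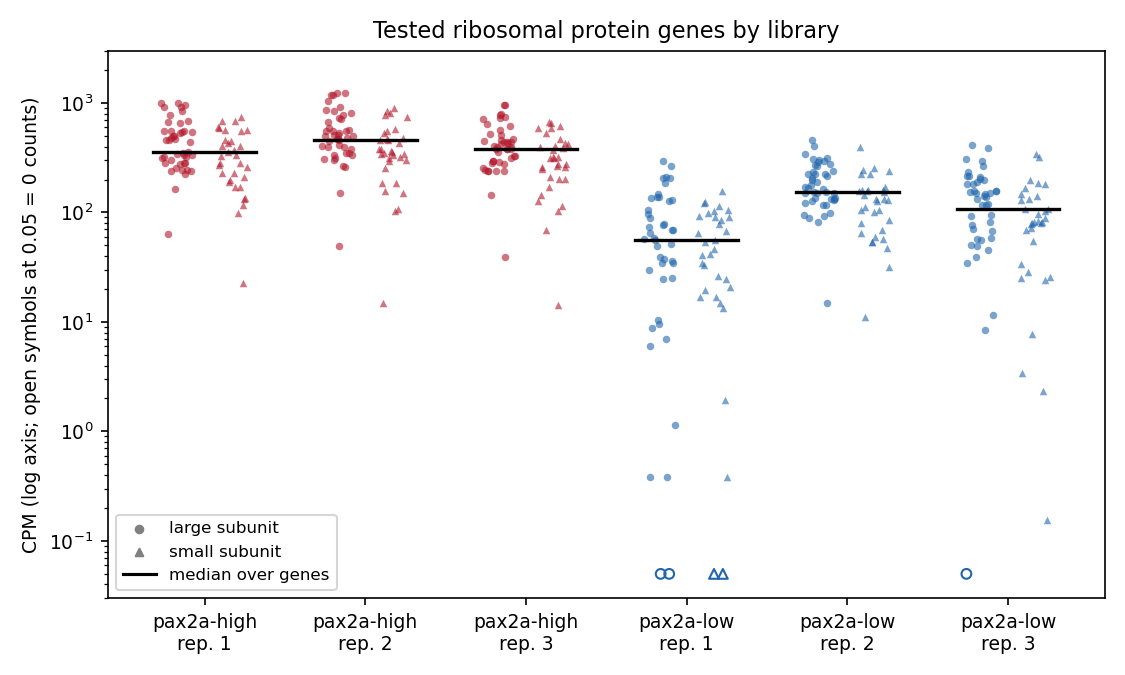
Level of the tested ribosomal protein genes in CPM on a log axis, by library, with each symbol 1 gene, circles for the large and triangles for the small subunit, open symbols for 0 counts and black lines at the medians. The pax2a-high libraries have medians of 354, 456 and 378 CPM and lie close together, whereas the pax2a-low libraries have lower medians and, in the first of them, a tail of genes near 0.

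By edgeR's quasi-likelihood test with Benjamini-Hochberg adjustment at a threshold of 0.05, 15 of the 77 tested genes were higher in pax2a-high cells and 0 were lower, while 62 did not pass. Over all 12524 genes tested, 1.12% were called higher and 1.46% lower. At an unadjusted p under 0.05, 62 of the 77 were higher and 0 lower by the same test, against 9.76% higher and 4.60% lower of all genes. Large-subunit genes gave 9 calls among 44 tested with a median log2 fold change of 1.88, and small-subunit genes 6 calls among 33 with a median of 1.96. The count of calls depended on single libraries. It was 0 without the first pax2a-high library, 17 without the second and 34 without the third, where 0.268, 1.39 and 1.87% of all genes were called higher. It was 19 without the first pax2a-low library, 10 without the second and 15 without the third, where 1.71, 1.02 and 1.58% of all genes were. Other methods moved the count too. DESeq2 called 18 of the 77 higher, where it called 6.55% of all genes higher and 4.08% lower. Limma voom with quality weights called 11 higher, against 0.79% of all genes higher and 2.21% lower. Without the count filter edgeR called 40 of 80 higher, against 1.4% of all genes higher and 1.28% lower, and with a filter of 5 CPM in 3 libraries it called 6, against 0.787% higher and 1.74% lower. DESeq2 without the count filter, a setting chosen after seeing the data, called 0 of 80 higher, against 4.08% of all genes, and 2 at an unadjusted p under 0.05, against 9.98%, so the family was below the background there.

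**Figure D3:**
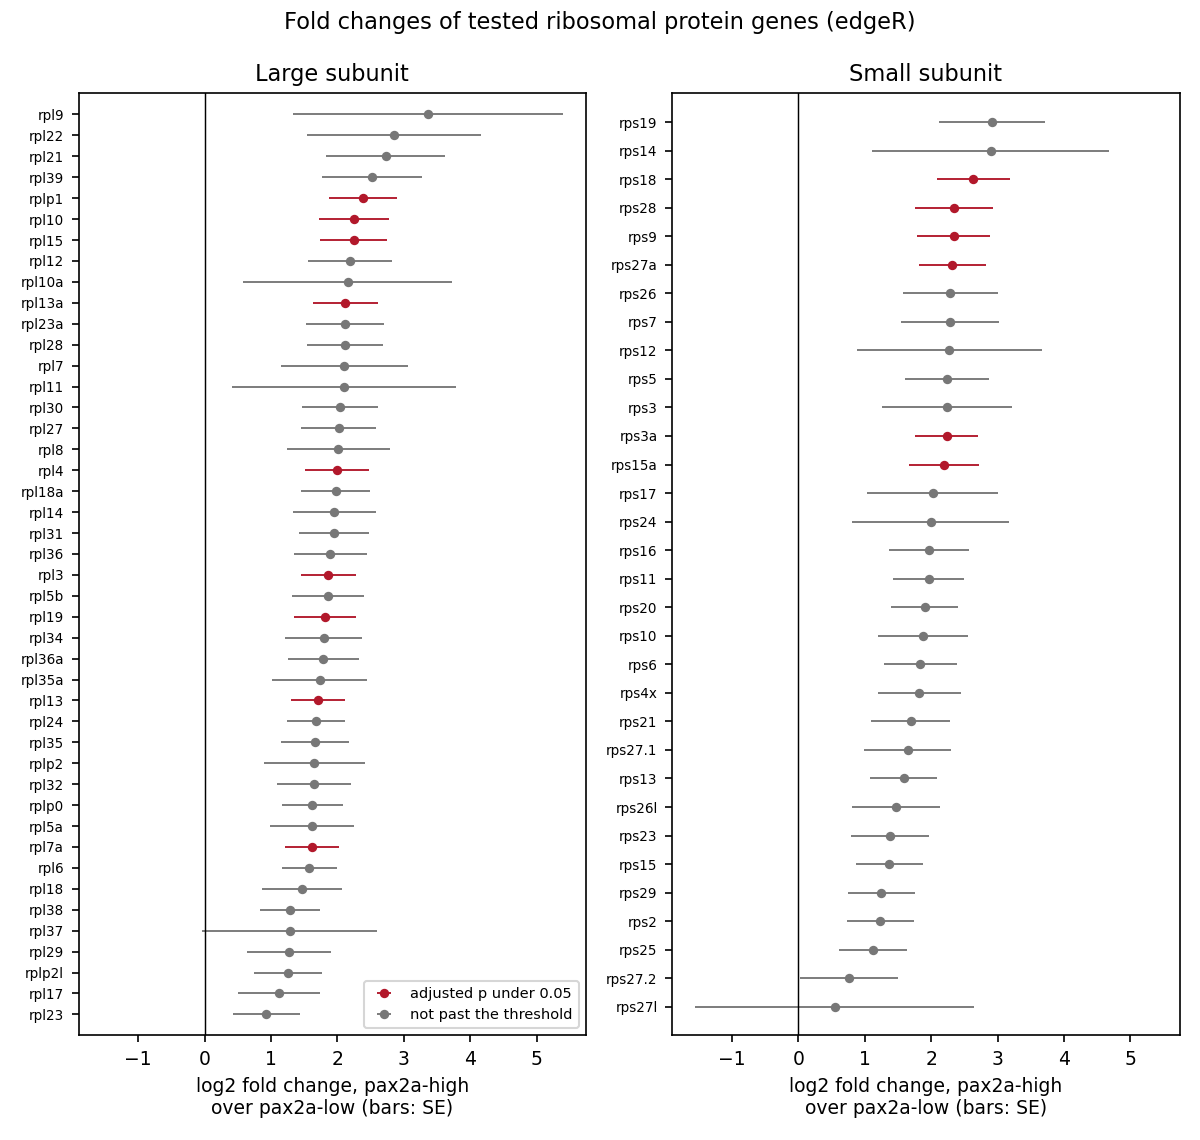
Log2 fold change of pax2a-high over pax2a-low for tested ribosomal protein genes with their standard errors, 1 of the 77 not shown, ordered by size, large and small subunit in separate panels, with red points for genes past the adjusted threshold and grey points for the others. The 15 red points are genes with comparatively small errors, while the highest values, such as rpl9 at 3.37, carry wide errors.

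Among the proteins of the stalk, the flexible arm of the large subunit that recruits elongation factors, rplp1 was called. Rplp1 had 850, 916 and 801 CPM in pax2a-high libraries and 69.0, 272 and 150 CPM in pax2a-low libraries. Each pax2a-high value was above each pax2a-low value, with means of 856 ± 57.6 and 164 ± 102 CPM (mean ± SD, n = 3 each). The log2 fold change of rplp1 was 2.38 (SE 0.51 and edgeR adjusted p = 0.0171). The stalk base protein gene rplp0 had 687, 804 and 563 CPM in pax2a-high libraries, against 127, 307 and 233 CPM in pax2a-low libraries. Its difference, a log2 fold change of 1.62, did not pass (SE 0.46 and edgeR adjusted p = 0.0808). For rplp2, whose product pairs with that of rplp1, the values were 352, 347 and 242 CPM in pax2a-high libraries and 9.64, 99.9 and 189 CPM in pax2a-low libraries, with a log2 fold change of 1.65 (edgeR adjusted p = 0.330). Its paralog rplp2l gave 354, 333 and 298 CPM against 77.1, 134 and 200 CPM and a log2 fold change of 1.26 (edgeR adjusted p = 0.238). All 4 stalk genes were without overlap between the groups, as were 75 of the 77 tested ribosomal protein genes and 21.4% of all genes tested. Without the first pax2a-high library the rplp1 adjusted p was 0.0694 by edgeR.

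Several called genes encode core proteins of the large subunit. Rpl3, which lies near the peptidyl transferase centre, had 998, 1041 and 746 CPM in pax2a-high libraries, against 210, 339 and 215 CPM in pax2a-low libraries. The means were 928 ± 159 and 255 ± 73.0 CPM (mean ± SD, n = 3 each), with a log2 fold change of 1.86 (SE 0.42 and edgeR adjusted p = 0.0245). Rpl4, part of which lines the tunnel through which the nascent chain leaves, had 543, 843 and 720 CPM in pax2a-high libraries, against 89.1, 238 and 199 CPM in pax2a-low libraries. This is a log2 fold change of 2.0 (SE 0.48 and edgeR adjusted p = 0.0362). Rpl10 joins the large subunit late in its maturation, before the subunits can pair. It had 555, 674 and 439 CPM in pax2a-high libraries, against 130, 170 and 50.3 CPM in pax2a-low libraries, with a log2 fold change of 2.25 (SE 0.53 and edgeR adjusted p = 0.0310). Rpl19, which contributes a contact to the small subunit, had 1009, 1225 and 724 CPM in pax2a-high libraries, against 138, 316 and 387 CPM in pax2a-low libraries. It passed narrowly, with a log2 fold change of 1.81 (SE 0.46 and edgeR adjusted p = 0.0485).

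The other large-subunit calls were rpl15, rpl13, rpl13a and rpl7a. Rpl15 had 461, 497 and 421 CPM in pax2a-high libraries and 106, 129 and 55.5 CPM in pax2a-low libraries. It was close to uniform within pax2a-high cells and had a log2 fold change of 2.25 (SE 0.51 and edgeR adjusted p = 0.0243). Rpl13 was at 927, 1183 and 776 CPM in pax2a-high libraries, against 296, 290 and 297 CPM in pax2a-low libraries. The pax2a-low libraries thus barely differed for rpl13, with means of 962 ± 206 and 295 ± 3.76 CPM (mean ± SD, n = 3 each) and a log2 fold change of 1.71 (edgeR adjusted p = 0.0309). Rpl13a, whose mammalian product can also leave the ribosome to silence certain mRNAs, had 470, 515 and 394 CPM in pax2a-high libraries, against 69.4, 132 and 116 CPM in pax2a-low libraries (log2 fold change 2.12, edgeR adjusted p = 0.0283). Rpl7a, a large-subunit surface protein, had 950, 1235 and 960 CPM in pax2a-high libraries, against 267, 454 and 309 CPM in pax2a-low libraries, with the smallest log2 fold change of the called genes at 1.61 (SE 0.41 and edgeR adjusted p = 0.0452).

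Of the small-subunit genes, rps18 had the lowest adjusted p of the family. Rps18, a protein of the small-subunit head, had 462, 473 and 315 CPM in pax2a-high libraries and 34.7, 84.9 and 81.6 CPM in pax2a-low libraries. The lowest pax2a-high library was well above the highest pax2a-low library, and the means of 417 ± 88.2 and 67.0 ± 28.1 CPM (mean ± SD, n = 3 each) differ 6.22-fold. Its log2 fold change was 2.64 (SE 0.54 and edgeR adjusted p = 0.0139). Rps3a had 681, 777 and 618 CPM in pax2a-high libraries, against 126, 227 and 89.3 CPM in pax2a-low libraries (log2 fold change 2.23, SE 0.48 and edgeR adjusted p = 0.0177). Rps27a is made as a fusion to ubiquitin, which is cut off after translation. It had 678, 840 and 675 CPM in pax2a-high libraries, against 115, 246 and 78.5 CPM in pax2a-low libraries, with a log2 fold change of 2.32 (SE 0.50 and edgeR adjusted p = 0.0185). Rps9, an early-binding protein of small-subunit assembly, had 585, 811 and 532 CPM in pax2a-high libraries, against 53.2, 225 and 104 CPM in pax2a-low libraries (log2 fold change 2.34, edgeR adjusted p = 0.0304).

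Rps15a and rps28 complete the list of calls. Rps15a had 454, 456 and 433 CPM in pax2a-high libraries and 79.0, 160 and 54.4 CPM in pax2a-low libraries. The pax2a-high libraries were nearly equal, at 448 ± 12.6 against 97.7 ± 55.0 CPM in pax2a-low libraries (mean ± SD, n = 3 each), and the log2 fold change reached 2.20 (edgeR adjusted p = 0.0359). Rps28 had 327, 301 and 258 CPM in pax2a-high libraries, against 26.2, 68.6 and 79.7 CPM in pax2a-low libraries, with a log2 fold change of 2.34 (SE 0.59 and edgeR adjusted p = 0.0467). Each of the 15 called genes was separate between the groups, as were 75 of the 77 tested. Of the 15 calls, DESeq2 kept 12, limma voom 8 and the filter of 5 CPM in 3 libraries 6. Limma voom lost rps18 (adjusted p = 0.0944), rpl13a (0.0601), rps9 (0.0726), rpl13 (0.0674), rpl10 (0.0646), rps28 (0.0958) and rpl19 (0.132). DESeq2 lost rpl13 (adjusted p = 0.0705), rpl7a (0.0808) and rpl19 (0.0772). None of the 15 kept its call without the first pax2a-high library, where edgeR adjusted p ran between 0.0658 for rps27a and 0.203 for rps28. Without the second pax2a-high library 5 calls were lost, with adjusted p of 0.0545 for rpl13a, 0.102 for rpl13, 0.106 for rpl7a, 0.0651 for rps28 and 0.0674 for rpl19. Without the first pax2a-low library, rpl7a and rpl19 were lost at 0.0510 and 0.0549, and without the third, rps15a and rpl7a at 0.0618 and 0.0709. Without the second pax2a-low library, adjusted p was 0.0622 for rps18, 0.0583 for rpl15, 0.0735 for rpl13a, 0.0934 for rpl13, 0.0690 for rpl10, 0.0855 for rpl4, 0.0637 for rpl7a, 0.126 for rps28 and 0.15 for rpl19.

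The 5 genes with the highest fold changes did not pass the test, and each varied widely among the pax2a-low libraries. Rpl9 had 63.8, 49.5 and 39.4 CPM in pax2a-high libraries, against 0, 14.8 and 0 CPM in pax2a-low libraries (log2 fold change 3.37, SE 2.03 and edgeR adjusted p = 0.557). Rps14, which is lost with part of chromosome 5 in the human 5q- syndrome, had 1913, 3126 and 4489 counts in pax2a-high libraries and 2, 430 and 2 counts in pax2a-low libraries. Its log2 fold change of 2.89 had an SE of 1.79 (edgeR adjusted p = 0.619). Rpl22 stood at 280, 397 and 244 CPM in pax2a-high libraries, against 0.386, 81.1 and 45.7 CPM in pax2a-low libraries (log2 fold change 2.85, edgeR adjusted p = 0.394). Rpl21 stood at 165, 308 and 252 CPM in pax2a-high libraries, against 6.94, 94.3 and 8.42 CPM in pax2a-low libraries (log2 fold change 2.72, edgeR adjusted p = 0.149). In each of these the second pax2a-low library was the highest of the pax2a-low libraries. Rps19, the gene most often mutated in human Diamond-Blackfan anaemia, was nearest to the threshold, at 210, 186 and 170 CPM in pax2a-high libraries, against 13.5, 53.6 and 7.79 CPM in pax2a-low libraries. Its log2 fold change was 2.92 (SE 0.80 and edgeR adjusted p = 0.0673). It passed without the third pax2a-high library (edgeR adjusted p = 0.0499) and without the second pax2a-low library (0.0280).

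At the other end, 2 genes overlapped between the groups. Rps27l, whose human counterpart is a p53 target, had 22.6, 14.9 and 14.4 CPM in pax2a-high libraries and 0, 11.2 and 24.3 CPM in pax2a-low libraries. The third pax2a-low library held the highest value of all, and the log2 fold change of 0.55 (SE 2.10 and edgeR adjusted p = 0.977) turned to -0.011 without the first pax2a-low library. Rps27.2 had 136, 106 and 69.0 CPM in pax2a-high libraries, against 102, 47.5 and 34.1 CPM in pax2a-low libraries (log2 fold change 0.76, edgeR adjusted p = 0.807). Rpl23, whose human product can bind the p53 regulator MDM2, did not overlap, at 225, 337 and 237 CPM in pax2a-high libraries, against 147, 117 and 156 CPM in pax2a-low libraries (log2 fold change 0.93, SE 0.51 and edgeR adjusted p = 0.474). Rps25, which some viral mRNAs need for internal initiation, had 228, 380 and 248 CPM in pax2a-high libraries, against 157, 130 and 107 CPM in pax2a-low libraries. Rpl17 had 285, 262 and 238 CPM in pax2a-high libraries, against 205, 121 and 34.9 CPM in pax2a-low libraries. Both had a log2 fold change of 1.12, with edgeR adjusted p of 0.322 for rps25 and 0.481 for rpl17.

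Of the genes chosen for their roles, rplp1 and rpl10 passed, as given above, while rplp0, rplp2 and rps19 did not. The remaining 5, rps6, rpl5a, rpl5b, rpl11 and rpl38, did not pass either, where 15 of the 77 tested ribosomal protein genes did. Rps6, the substrate of S6 kinase downstream of mTORC1, had 740, 895 and 660 CPM in pax2a-high libraries, against 65.5, 395 and 181 CPM in pax2a-low libraries (log2 fold change 1.84, SE 0.56 and edgeR adjusted p = 0.108). The products of RPL5 and RPL11 form a particle with 5S ribosomal RNA that in mammals also binds MDM2. The zebrafish gene rpl5a had 239, 377 and 297 CPM in pax2a-high libraries, against 24.7, 155 and 117 CPM in pax2a-low libraries (log2 fold change 1.62, edgeR adjusted p = 0.211). Its copy rpl5b had 667, 508 and 382 CPM in pax2a-high libraries, against 138, 233 and 58.7 CPM in pax2a-low libraries (log2 fold change 1.86, edgeR adjusted p = 0.0938). Rpl11 was at 244, 352 and 328 CPM in pax2a-high libraries, against 0, 135 and 81.0 CPM in pax2a-low libraries, and the first pax2a-low library held no count of it (log2 fold change 2.09, SE 1.69 and edgeR adjusted p = 0.765). Rpl38, which in mouse embryos is needed to translate Hox mRNAs, had 495, 553 and 458 CPM in pax2a-high libraries, against 136, 215 and 266 CPM in pax2a-low libraries (log2 fold change 1.29, SE 0.46 and edgeR adjusted p = 0.178). For all 5 genes each pax2a-high library was above each pax2a-low library, as for 75 of the 77 tested and 21.4% of all genes tested.

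Among the 3 rows that the filter removed, rpl26 had 0, 2 and 0 counts in pax2a-high libraries and 0 in every pax2a-low library. The second rpl37 row had 0, 0 and 67 counts in pax2a-high libraries and 2, 0 and 0 counts in pax2a-low libraries. A floor of 3 counts corresponds to 0.0842 to 0.183 CPM in pax2a-high libraries, against 0.234 to 0.578 CPM in pax2a-low libraries, for counting error only.

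Set against their own sum, no ribosomal protein gene departed from the rest by this test. With the summed counts of the 80 rows as library size, edgeR called 0 of 77 higher and 0 lower after Benjamini-Hochberg adjustment, and 0 had an unadjusted p under 0.05. Over all genes tested on this scale, 0.0878% were called higher and 6.84% lower. At an unadjusted p under 0.05, 565 of the 12524 genes were higher and 2191 lower by the same test. The lowest adjusted p among the 77 was 0.342, and the log2 values ran between -1.50 for rps27.2 (SE 0.92) and 1.99 for rpl9 (SE 2.35). With errors of this size, the test does not show that all 77 genes shifted alike. With limma voom on the same library sizes, 0 of the 77 were called and 3 had an unadjusted p under 0.05, all higher. Of all 12524 genes, limma voom called 120 higher and 1236 lower there, and 779 were higher at an unadjusted p under 0.05. The large-subunit genes took 64.3, 65.2 and 64.1% of the family's counts in pax2a-high libraries, against 65.3, 65.9 and 65.3% in pax2a-low libraries. The groups did not overlap, yet the difference of -0.98 percentage points was small (exact permutation p = 0.1, the smallest possible). It was -0.60 points with an exact permutation p of 0.7 when the member with the most counts in each subunit was left out.

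The make-up of the family was steady among pax2a-high libraries and varied among pax2a-low libraries. Dissimilarity was taken as 50% of the summed absolute differences in each gene's percent of the family's counts. It was 5.82 to 7.94% between pax2a-high libraries and 21.1 to 34.2% between pax2a-low libraries. Spearman's rho of the 80 rows was 0.909 to 0.944 between pax2a-high libraries and 0.374 to 0.644 between pax2a-low libraries, as a description across genes. The second pax2a-low library was nearer to the pax2a-high libraries, at 8.91 to 10.9%, than to either of the other pax2a-low libraries, at 29.7 and 21.1%. In the first pax2a-low library 9 of the tested genes had 10 or fewer counts, with rpl11, rps12, rpl9 and rps27l at 0. The third had 2 such genes, rpl9 at 0 and rps14 at 2 counts, and the second and all pax2a-high libraries had 0. The first and the third pax2a-low library had 27748 and 122430 counts in the family and the second 104380. The part of depth in these differences was not tested.

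**Figure D4:**
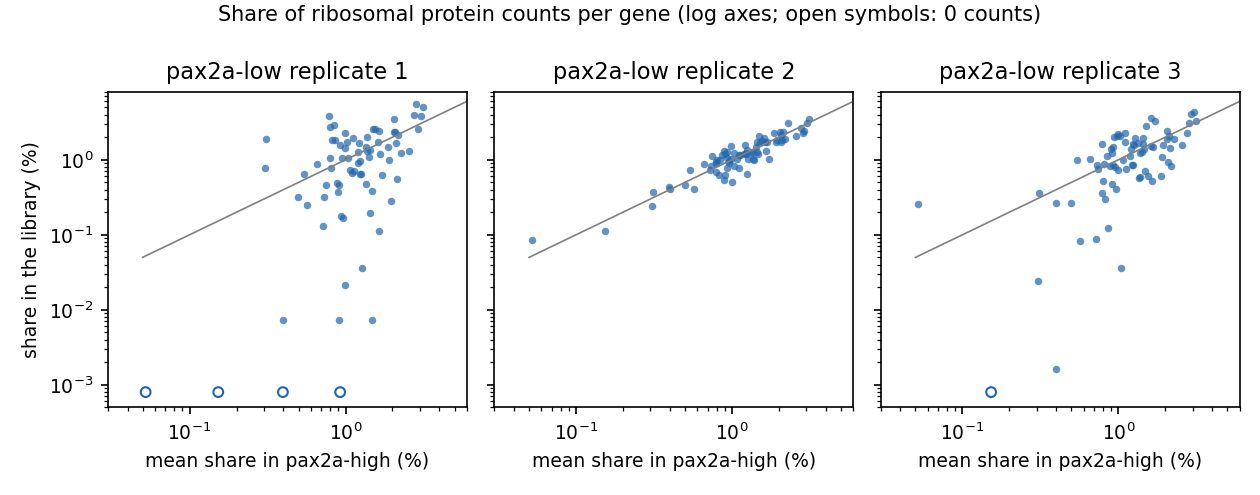
Each ribosomal protein gene's percent of the family's counts in each pax2a-low library (y axis, log scale, 1 panel a library) against its mean percent over the pax2a-high libraries (x axis, log scale), with the line marking equality and genes without a count as open symbols at the bottom. Points of the second pax2a-low library lie near the line, and those of the first and the third pax2a-low library scatter, with 4 and 1 tested genes at 0.

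Duplicated genes let the balance between copies be compared within a library, although counting may have split reads between near-identical copies, so these shares are uncertain. Of 16 pairs listed, 7 had a row for both genes, all with enough counts. The exact permutation test gave a lowest unadjusted p of 0.2 and a lowest adjusted p of 0.933. The smallest p that 3 libraries against 3 allow is 0.1, above the threshold used here, so no pair could have passed. The test therefore cannot decide whether the balance of a pair differed. All 7 overlapped between the groups. Rplp2l took 50.2, 49.0 and 55.2% of the rplp2 pair in pax2a-high libraries, against 88.9, 57.4 and 51.4% in pax2a-low libraries. Rps26l took 62.6, 64.2 and 65.5% of the rps26 pair in pax2a-high libraries, with a mean of 64.1 ± 1.49%, and 53.7, 74.1 and 83.7% in pax2a-low libraries, with a mean of 70.5 ± 15.3% (mean ± SD, n = 3 each). The balance of the rps26 copies thus varied by little among pax2a-high libraries. Rpl5b took 73.6, 57.4 and 56.2% of the rpl5 pair in pax2a-high libraries, against 84.8, 60.1 and 33.3% in pax2a-low libraries.

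In the rps27 group, rps27.2 took 37.1, 25.4 and 24.8% of its sum with rps27.1 in pax2a-high libraries and 80.6, 24.7 and 32.3% in pax2a-low libraries. The first pax2a-low library stands apart there, on 531 counts of rps27.2 and 128 of rps27.1. Rps27l took 8.90, 4.54 and 6.44% of its sum with rps27.1 in pax2a-high libraries, against 0, 7.17 and 25.4% in pax2a-low libraries, where 0 of 128 counts allows a share of up to 2.34%. The related gene rpl22l1, which is no member, took 11.2, 8.65 and 12.1% of its sum with rpl22 in pax2a-high libraries, against 97.4, 28.4 and 0% in pax2a-low libraries. In the first pax2a-low library that value rests on 76 and 2 counts, and in the third 0 of 586 counts allows a share of up to 0.512%. Rpl7l1 took 7.70, 6.14 and 1.31% of its sum with rpl7 in pax2a-high libraries and 0, 6.35 and 0% in pax2a-low libraries, with limits of 9.68 and 0.160% for the zeros.

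The next list held rpsa, rack1, faua and faub, whose names lie outside the rule, and rpl7l1 and rpl22l1, which the rule left out. Of these 6 tested genes, edgeR called 1 higher and 0 lower. Of all genes tested, 1.12% were called higher and 1.46% lower. The median log2 fold change of the 6 was 2.11. Rack1, a scaffold on the small subunit, had 552, 609 and 463 CPM in pax2a-high libraries, against 87.9, 185 and 162 CPM in pax2a-low libraries (log2 fold change 1.90, SE 0.47 and edgeR adjusted p = 0.0439). Faua, a ubiquitin-like fusion of a small-subunit protein, and rpsa had log2 fold changes of 2.29 and 1.92 and did not pass (edgeR adjusted p of 0.0966 and 0.112). The rack1 call was lost without the first pax2a-high library (edgeR adjusted p = 0.155), the second (0.0846) and the second pax2a-low library (0.0919).

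A list of other genes taken as TOP mRNAs by name, without looking at their start sites, gave 3 of 29 tested genes higher, 0 lower and 26 positive. Of all genes tested, 1.12% were called higher, 1.46% lower and 57.1% were positive. The median log2 fold change of the 29 was 1.53. Eef1a1l1, the elongation factor that brings aminoacyl-tRNA to the ribosome, had 5282, 4816 and 4081 CPM in pax2a-high libraries and 633, 1743 and 1231 CPM in pax2a-low libraries. The groups were well apart, with a log2 fold change of 1.97 (SE 0.39 and edgeR adjusted p = 0.0105). Tpt1, the translationally controlled tumour protein gene, had a log2 fold change of 2.03 (SE 0.44 and edgeR adjusted p = 0.0189). Btf3, a subunit of the complex that binds nascent chains, had 2.16 (SE 0.52 and edgeR adjusted p = 0.0351). Eef2b, the translocation factor, did not pass at 1.43 (edgeR adjusted p = 0.107). Without the first pax2a-high library the 3 called genes had edgeR adjusted p of 0.0571, 0.0774 and 0.106. Btf3 was also lost without the second pax2a-high library (0.140), the second pax2a-low library (0.0600) and the third (0.0536).

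Assembly factors, the machinery that builds ribosomes, were near the background of all genes in their calls. Of 77 tested, 0 were called in either direction by edgeR, where 1.12% of all genes were called higher, and 7 were higher at an unadjusted p under 0.05, where 9.76% of all genes were. Their log2 fold change was positive for 63, against 57.1% of all genes tested, with a median of 1.14. Nucleolin, ncl, had 507, 512 and 450 CPM in pax2a-high libraries, against 151, 254 and 211 CPM in pax2a-low libraries (log2 fold change 1.25, edgeR adjusted p = 0.182). The DEAD-box helicase gene ddx56 had 49.7, 9.61 and 10.1 CPM in pax2a-high libraries and 0 in every pax2a-low library. Las1l, which cleaves an RNA spacer in precursor rRNA, had 7.20, 4.75 and 5.45 CPM in pax2a-high libraries and 0 in every pax2a-low library. The medians printed for the related lists did not change when genes at 0 in a whole group were set at the bound that 3 counts per library give. This is a weak check, since at most 2 tested genes of any related list were at 0 in a whole group. Of 8 tested RNA polymerase I genes, 0 were called, 0 had an unadjusted p under 0.05 and 6 were positive (median 1.90). Summed levels of the 11 RNA polymerase I rows overlapped, at 239 to 253 CPM in pax2a-high libraries against 74.4 to 271 CPM in pax2a-low libraries. The ratio of ribosomal protein to assembly factor counts, over 80 and 91 rows, was 10.80, 14.40 and 14.04 in pax2a-high libraries, against 3.943, 8.120 and 9.842 in pax2a-low libraries. The groups did not overlap, and the log2 ratios of 3.70 ± 0.230 and 2.77 ± 0.696 (mean ± SD, n = 3 each) differed by 0.93 (exact permutation p = 0.1, the smallest possible).

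Mitochondrial ribosomal proteins, which are encoded in the nucleus and serve the ribosomes inside mitochondria, had no call and a median below 0. Of 48 tested, 0 were called in either direction by edgeR, where 1.12% of all genes were called higher and 1.46% lower. At an unadjusted p under 0.05, 2 were higher and 0 lower, against 9.76% and 4.60% of all genes. The log2 fold change of these mitochondrial ribosomal proteins was positive for 19, against 57.1% of all genes tested, with a median of -0.68. Their 74 rows summed to 308 to 511 CPM in pax2a-high libraries, against 400 to 793 CPM in pax2a-low libraries, and these sums overlapped. The median covers the 48 tested rows only. Of the 74 rows, 12 had no count in any pax2a-low library, where depth was lower, and 0 had no count in any pax2a-high library. The family as a whole is therefore not shown to be lower in pax2a-high cells. The ratio of cytosolic to mitochondrial ribosomal protein counts was 95.53, 123.8 and 58.72 in pax2a-high libraries, against 10.16, 32.39 and 12.02 in pax2a-low libraries. This ratio does not depend on library size. The log2 ratios were 6.47 ± 0.547 in pax2a-high libraries, against 3.98 ± 0.903 in pax2a-low libraries (mean ± SD, n = 3 each), a difference of 2.49 with no overlap (exact permutation p = 0.1, the smallest possible).

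**Figure D5:**
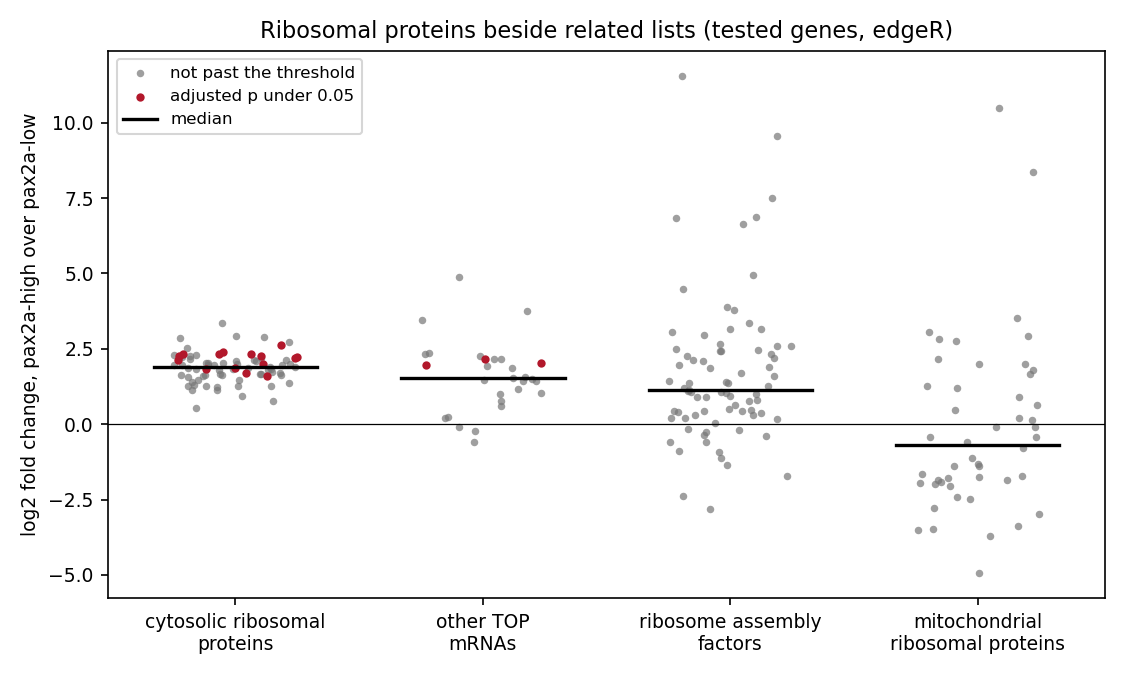
Log2 fold change of pax2a-high over pax2a-low for the tested genes of the cytosolic ribosomal proteins and of 3 related lists, with each point 1 gene, a bar at the list median and red points for genes past the adjusted threshold. Cytosolic ribosomal proteins have a median of 1.90, other TOP mRNAs 1.53, assembly factors 1.14 and mitochondrial ribosomal proteins -0.68; values near 10 belong to genes with almost no count in pax2a-low libraries and depend on the fit's prior count.

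Genes known to control ribosomal protein output were also listed, and their counts stand beside 1.12% of all genes called higher and 9.76% higher at an unadjusted p under 0.05. In the mTORC1, S6 kinase and LARP1 list, 0 of 22 tested genes were called by edgeR and 2 were higher at an unadjusted p under 0.05 (median log2 fold change 1.09). One of these, pdcd4b, a translation inhibitor that S6 kinase targets in mammals, had 468, 550 and 269 CPM in pax2a-high libraries, against 188, 216 and 146 CPM in pax2a-low libraries (log2 fold change 1.22, edgeR adjusted p = 0.208). Mammalian MYC activates ribosomal protein genes. Of 11 genes of the MYC family and its partners, which are not all activators, 1 was called higher and 0 lower (median 0.62). This was mycb, with 922, 990 and 705 CPM in pax2a-high libraries and 142, 90.1 and 115 CPM in pax2a-low libraries. The means were 872 ± 149 and 116 ± 25.9 CPM (mean ± SD, n = 3 each), and the log2 fold change was 2.91 (SE 0.44 and edgeR adjusted p = 0.00111). Its call held whichever library was left out, but was lost in DESeq2 without the count filter, a setting chosen after seeing the data (adjusted p = 0.136). Mych, mycn and max did not pass, with log2 fold changes of 1.86, 2.46 and 0.63 (edgeR adjusted p of 0.0938, 0.686 and 0.854). A link between the genes of these lists and the levels of ribosomal protein genes was not tested.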

How the data were processed

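The deposited values are whole-number counts per gene, made by the authors with HISAT2 on GRCz11 and featureCounts, per the submitters' processing notes. Versions, strand and multi-mapping settings are not given in the sources used here. Of counts above 0 over all genes, 67.8 to 89.0% were even, so reads may not be independent molecules. In the ribosomal protein rows 46.8, 62.8 and 46.8% were even in pax2a-high libraries, against 94.6, 66.2 and 68.8% in pax2a-low libraries, without overlap. The cause of the even counts was not tested. Groups and replicate numbers came from sample titles.

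Genes were tested in R 4.3.3 by the robust quasi-likelihood test of edgeR 4.0.16 on the group alone, after filterByExpr and TMM scaling, with Benjamini-Hochberg adjustment over all 12524 genes at 0.05. CPM are over TMM-scaled library size. Single values per library were compared by exact two-sided permutation. Alternatives used DESeq2 1.42.0 and limma 3.58.1. The code was tested on simulated counts that varied less than these data, where edgeR's common biological coefficient of variation was 1.50. That test therefore does not show how well changes were found here.

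The text names called members, the 5 highest and 5 lowest fold changes, filtered rows, compared pairs, role genes and up to 4 genes per list by p. Members and lists were chosen with earlier results of these data known. Sequences, promoters and coding lengths were not analysed here, so levels are not compared between genes per length. Some genes are not reported here.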

Additional observations from a re-analysis of the deposited data

How the results depend on the processing

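Of the called ribosomal protein genes, 0 were lower under every alternative run. The count called higher was 15 in the fit reported, of 140 genes called higher in all. It was 12 with DESeq2 size factors in edgeR, of 134 genes, and 15 with TMM computed without the ribosomal protein rows, of 149. It was 15 with library sizes free of mitochondrial rows, of 143 genes, and 15 with halved counts, of 162. It was 40 of 80 without a count filter, 6 with at least 5 CPM in 3 libraries, 18 with DESeq2 and 11 with limma voom. The shares of all genes for these 4 settings are given above. At a threshold of 0.01, 0 of 77 were called, where 44 of 12524 genes were called higher. DESeq2 without the count filter, chosen after seeing the data, called 0 of 80 higher, against 4.08% of all genes, with 2 at an unadjusted p under 0.05, against 9.98%. The cause of these shifts was not tested. Leaving out 1 library gave 0 to 34 calls. The median log2 fold change of all genes moved to 0.24 with DESeq2 size factors, 1.52 with limma, 1.42 with the replicate block and 0.92 without a filter, beside 1.76, 1.96, 2.13 and 1.88 for the ribosomal protein genes. Deviations from the group means correlated at 0.032, 0.053 and 0.079 between same-numbered libraries, against -0.053 to -0.0032 between the others. Each library thus correlated best with its own number. The column headers also give same-numbered libraries of both groups the same set. What a set marks is not stated, so whether the libraries are paired is not known. With the replicate block 51 ribosomal protein genes and 15 genes of related lists were called higher, of 425 genes in all. Related lists gave 6 calls in the fit reported, where 1.12% of all genes were called higher. They gave 1 to 10 without 1 library, where 0.268 to 1.87% of all genes were. Against the family's own total, 0 ribosomal protein genes were called under every alternative, where 9 to 232 of all genes were called higher and 558 to 1236 lower. Differences in shares and ratios kept their direction, with ranges without 1 library of 1.93 to 2.43 points for the family share and -1.32 to -0.74 for the large-subunit share. The log2 ratio differences ranged over 2.17 to 3.0 for mitochondrial ribosomal proteins and 0.54 to 1.2 for assembly factors. The rps27l log2 fold change ran over -0.011 to 1.601 without 1 library. Pair differences in percentage points changed sign when 1 library was left out, over -27.3 to 0.587 for rps27.2, -9.64 to 3.04 for rps27l, -10.0 to 15.7 for rpl5b and -14.8 to 0.214 for rps26l. The first pax2a-low library had the fewest counts, at 6053741, and the part of depth in these results was not tested.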

Other observations

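Genes of the p53 response and of cell division, both of which are linked to ribosome supply in other systems, were described in the same fit. Of all genes tested, 1.12% were called higher and 1.46% lower. Of 12 tested p53 response genes, 1 was called higher in pax2a-high cells and 0 lower, with a median log2 fold change of 0.61. This was sesn1, an inhibitor of mTORC1 in mammals, with 136, 201 and 150 CPM in pax2a-high libraries and 5.78, 25.9 and 22.6 CPM in pax2a-low libraries. Its log2 fold change was 3.16 (SE 0.79 and edgeR adjusted p = 0.0443). The call was lost without the first pax2a-high library (0.143), the second (0.159), the third (0.0677) and the second pax2a-low library (0.102). Ccng1 and gadd45aa overlapped between the groups, with log2 fold changes of 0.78 and -2.30 (edgeR adjusted p of 0.545 and 0.437). By edgeR, 0 of 7 tested cell division genes were called. At an unadjusted p under 0.05, where 9.76% of all genes were higher, 1 of the 7 cell division genes was. Their 15 rows summed to between 40.3 and 93.8 CPM in pax2a-high libraries, against 19.1 to 142 CPM in pax2a-low libraries, and the summed levels overlapped.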
